A study of Bos taurus with 6 samples.

Results

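The D cyclins (CCND1, CCND2 and CCND3), their partner kinases (CDK4 and CDK6), inhibitors of these kinases (CDKN1A, CDKN1B and CDKN2C), the retinoblastoma gene RB1 and the growth gene MYC were followed in bovine granulosa cells. These 10 genes were taken by their symbols in the annotation of the array, which names 13 of its 43794 probes for them. Signal above background was found for 10 of the 13 probes, which stand for 9 of the 10 genes, among 23480 such probes in all.

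RNA came from mature, multiparous beef cows. The conventional FSH group had been given FSH every 12 h over 4 days, and the long FSH group had been given it in the same way over 7 days. In both groups follicles had been ablated to start a new wave, a progesterone device and a luteolytic prostaglandin were used, and the ovaries were removed 24 h after LH. Each cow gave 1 pool of granulosa cell RNA, from her 3 largest follicles, which was amplified, and a value stands for 1 cow and not for 1 follicle. RNA of 3 cows a group was hybridised as 3 cow pairs, each pair on 2 arrays with the dyes swapped, and the mean of both arrays counts as 1 replicate (n = 3 cow pairs).

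D cyclins are the growth signal sensors of the cell cycle. They activate CDK4 and CDK6, which phosphorylate the RB1 protein and so release the E2F factors that switch on genes of DNA synthesis, while CDK inhibitors hold these kinases back. In rodent granulosa cells FSH induces cyclin D2, mice without it have granulosa cells that hardly divide in response to FSH, and the LH surge shuts the gene off as the cells leave the cycle and luteinize.

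Values are log2 ratios of long FSH over conventional FSH after background subtraction and loess normalization, and levels are log2 intensities of 1 probe, which can be set against other cows but not against other probes. Which dye marked which group is stated in 2 opposite ways, by the sample labels on one side and by the design text and the study's legends on the other. The second was used, and the direction is therefore called likely and no more. The deposited table of ratios has the same direction when it is turned by the sample labels. Each of its columns follows the swapped array, so this sameness comes from using opposite dye statements for the 2 sources. It does not settle the direction. With the other dye assignment every higher would be a lower. The study's threshold stands for an unadjusted p of 0.05 or less from limma with at least a 2-fold difference.

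The background limit was set 2 SD over the average negative control spot, and 41.8% to 51.4% of probes exceeded it on an array in either dye. The swapped arrays of a pair correlated across tested probes with r = 0.43 in pair 1, 0.65 in pair 2 and 0.24 in pair 3. Of the granulosa markers, CYP19A1, FSHR, AMH, INHA and GATA4 were above background, whereas FOXL2 and NR5A1 were not. Other cell types were also represented, by 6 of 7 theca markers (CYP17A1 was not above background), 3 of 5 endothelial markers (PECAM1 and VWF were not) and 6 of 7 leukocyte markers (ITGB2 was not). Of 4 oocyte markers, BMP15 was above background in 4 long FSH and 3 conventional readings, at a ratio of 0.17 ± 0.24. GDF9, ZP3 and DPPA3 were not above background.

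Cyclin D2 (CCND2) was lower after long FSH, and was the one member past the study's threshold (1 of 10 tested probes, against 3.94% of all tested probes in either direction and 1.46% in the lower direction). In conventional cows 1, 2 and 3 its level was 12.41, 13.45 and 11.24. In long FSH cows 1, 2 and 3 it was 10.87, 8.27 and 7.84. All 3 long FSH cows lay below all 3 conventional cows, with a gap of 0.38 between the lowest conventional and the highest long FSH cow. The log2 ratio was -1.54, -5.18 and -3.40 in pairs 1, 2 and 3, which is 2.91-fold, 36.2-fold and 10.6-fold lower after long FSH. The mean was -3.37 ± 1.82 (SD, n = 3 cow pairs), or 10.4-fold lower, with a 95% interval of -5.01 to -1.73 and an adjusted p of 0.257 from limma over all probes. Only 2 of the 9933 genes tested had a lower ratio. The size rests on the pairs, since it was -2.47 without pair 2 and -4.29 without pair 1. The study names this gene among those it found lower on the same arrays, so its direction is not independent evidence.

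**Figure D1:**
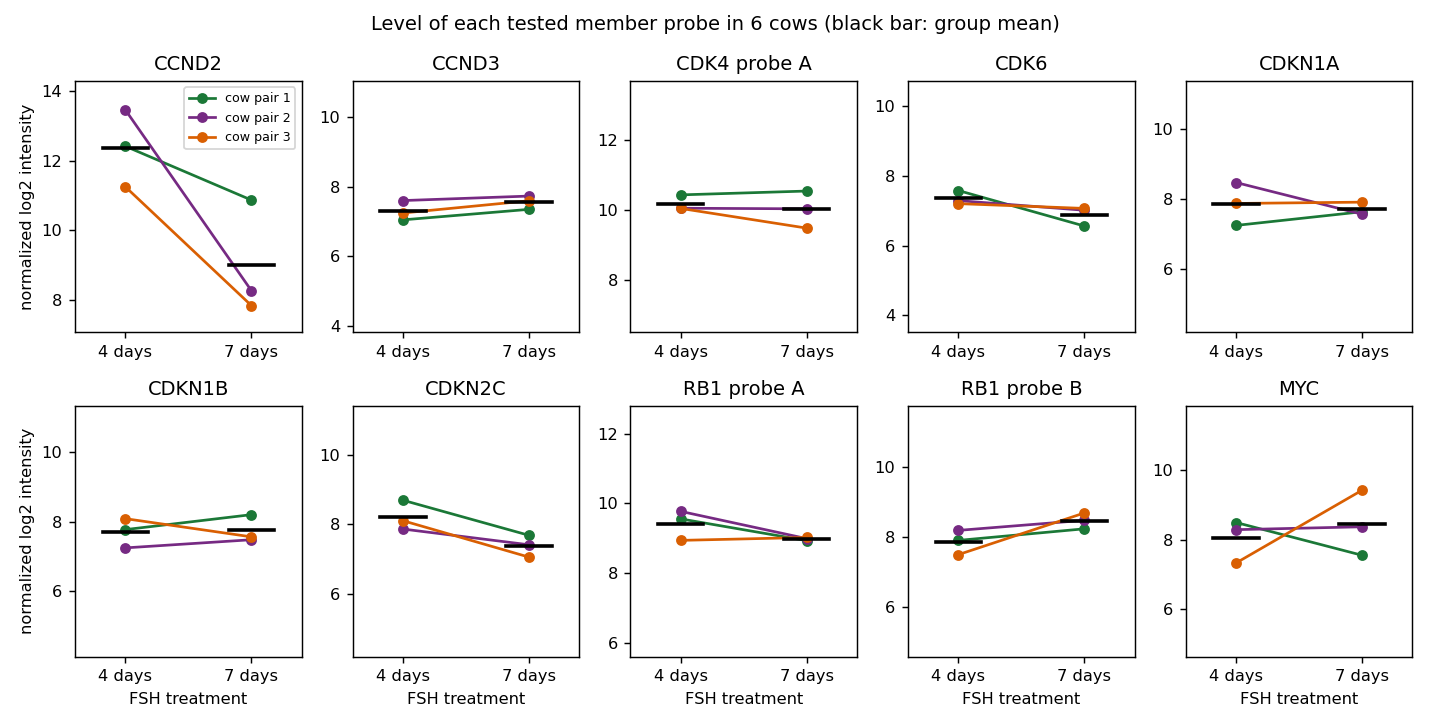
Normalized log2 intensity of the 10 tested member probes in each cow after 4 or 7 days of FSH, with a line for each cow pair and a black bar for the group mean. The panels span the same number of log2 units, and CCND2 falls from 12.41, 13.45 and 11.24 to 10.87, 8.27 and 7.84, whereas MYC rises by 2.08 in pair 3 and falls by 0.94 in pair 1.

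The CCND2 ratio had the same direction in both dye orientations. It was below 0 on all 6 arrays, at -1.11, -4.74 and -3.13 on the arrays of one dye orientation and at -1.98, -5.62 and -3.67 on the swapped arrays of the same pairs. The swapped arrays of a pair thus differed by 0.54 to 0.89, less than the pairs did. Before normalization, its net intensity ran from 1764 to 13237 in the 6 conventional readings and from 178 to 1964 in the 6 long FSH readings. All 12 readings were above the background limit, by 14.0 to 84.9 times in the conventional and by 1.17 to 13.1 times in the long FSH group.

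In a bulk sample, fewer cells of a type and less RNA per cell cannot be told apart. The summed level of the 5 granulosa markers above background was 43435 to 47440 in conventional and 31376 to 35554 in long FSH cows, without overlap. Such sums follow the brightest probes, here INHA, which was at -0.65 ± 0.10 (SD, n = 3 cow pairs) with all long FSH cows below the conventional cows. The 5 markers did not share a direction. Of these 5, CYP19A1 alone passed the study's threshold, at -1.81 ± 1.35, while GATA4 was at 0.74 ± 0.62 with all long FSH cows above. The 6 leukocyte markers above background summed to 2142 to 5746 in conventional and 2944 to 5648 in long FSH cows, a sum led by PTPRC at 0.10 ± 0.62. All 6 nevertheless had a mean ratio above 0, with a median of 0.74, and LYZ was higher at the study's threshold (1.52 ± 1.27). However, LYZ, CD14 and CD74 entered the test through the long FSH group alone, so the filter favoured ratios above 0 for them. LYZ was above background in 6 long FSH and 2 conventional readings, CD14 in 3 and 1, and CD74 in 3 and 0. The 6 theca markers summed to 2341 to 8715 and 3756 to 8443, with a median ratio of 0.04, and DCN was lower at the study's threshold (-1.20 ± 1.27). The 3 endothelial markers summed to 434 to 486 and 399 to 475, with a median ratio of -0.10, and none passed. Of these, KDR was above background in 0 long FSH and 4 conventional readings, and the granulosa marker AMH in 2 and 5. Both entered the test through the conventional group alone, so the filter favoured ratios below 0 for them. The part of these cell types in the ratios was not tested.

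Cyclin D1 (CCND1), the D cyclin of many other tissues, was not above background in any long FSH reading and in 1 of 6 conventional readings, so neither a level nor a fold is given. Cyclin D3 (CCND3) stood near the limit, above it in 4 of 6 conventional and 6 of 6 long FSH readings. Its level was 7.04, 7.60 and 7.24 in conventional cows and 7.35, 7.73 and 7.59 in long FSH cows 1, 2 and 3. The groups overlapped, although each long FSH cow was above its own partner. The log2 ratio was 0.26 ± 0.12 (SD, n = 3 cow pairs), with a 95% interval of -0.23 to 0.75 that does not reach a 2-fold difference in either direction (adjusted p = 0.637 from limma).

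**Figure D2:**
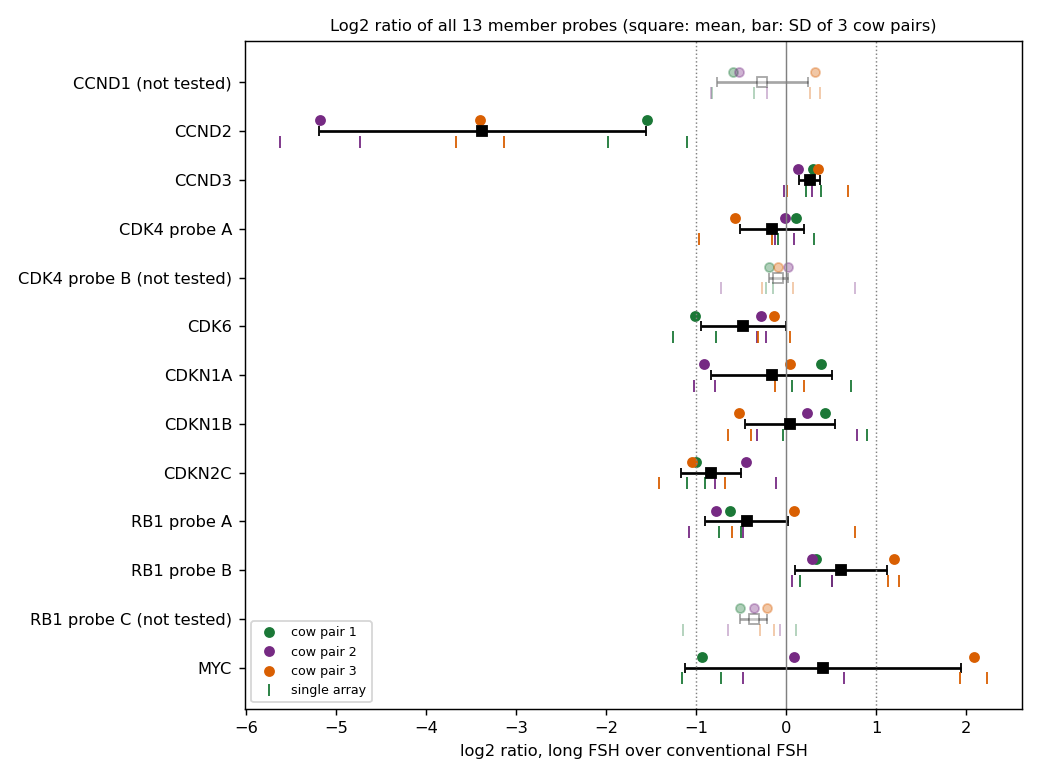
Log2 ratio of long FSH over conventional FSH for all 13 member probes, with squares and bars for the mean and SD of 3 cow pairs, circles for the pairs and ticks for the 6 arrays. Dotted lines mark a 2-fold difference, pale symbols mark the 3 probes that were not tested, and letters rank the probes of a gene from the brightest. CCND2 lies at -3.37 and the other tested probes between -0.83 and 0.60.

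Of the kinases that D cyclins activate, CDK4 was above background in all readings of its brighter probe and close to 0. The brighter of its 2 probes had levels of 10.43, 10.05 and 10.04 in conventional cows and 10.54, 10.03 and 9.48 in long FSH cows 1, 2 and 3. The groups overlapped and the log2 ratio was -0.16 ± 0.36 (SD, n = 3 cow pairs), with a 95% interval of -0.73 to 0.41. The other probe was above background in 2 of 6 readings of each group and was not tested.

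CDK6, the second kinase of this kind, was above the limit in 5 of 6 conventional and 2 of 6 long FSH readings, and so entered the test through the conventional group alone. Its level was 7.58, 7.29 and 7.21 in conventional cows and 6.56, 7.02 and 7.07 in long FSH cows 1, 2 and 3. The long FSH cows lay below the conventional cows without overlap, yet the log2 ratio of -0.48 ± 0.47 (SD, n = 3 cow pairs) did not pass (adjusted p = 0.572 from limma). The ratio was -1.02 in pair 1 and only -0.28 and -0.14 in pairs 2 and 3.

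Among the inhibitors, CDKN2C was lower without reaching the study's threshold. It encodes p18, which binds CDK4 and CDK6 and keeps D cyclins from activating them. Its level was 8.69, 7.87 and 8.10 in conventional cows and 7.69, 7.42 and 7.06 in long FSH cows 1, 2 and 3. The groups did not overlap, and the ratio was below 0 on all 6 arrays. The long FSH readings were close to the background limit, at 0.93 to 1.44 times it, which limits what the size of the ratio shows. The mean log2 ratio of -0.83 ± 0.33 (SD, n = 3 cow pairs) was short of a 2-fold difference. Its 95% interval of -1.39 to -0.28 extends past 2-fold. Limma gave an unadjusted p of 0.0110 and an adjusted p of 0.372, and without pair 2 the ratio was -1.02 and passed the study's threshold. The gene was lower in each of 25 alternative settings, between -1.02 and -0.63.

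CDKN1A (p21) and CDKN1B (p27), the inhibitors that rise as rodent granulosa cells luteinize, had no shared direction. CDKN1A was at 7.24, 8.47 and 7.87 in conventional cows and at 7.63, 7.56 and 7.91 in long FSH cows 1, 2 and 3, with overlap. Its log2 ratio was 0.39, -0.91 and 0.04 in the 3 pairs and -0.16 ± 0.67 (SD) on average, with a 95% interval of -0.91 to 0.59. CDKN1B was at 7.77, 7.25 and 8.08 in conventional cows and at 8.20, 7.48 and 7.56 in long FSH cows, again with overlap. Its log2 ratio was 0.43, 0.23 and -0.52 in the pairs and 0.05 ± 0.50 (SD) on average, with a 95% interval of -0.60 to 0.69. On the 3 arrays of one dye orientation the mean of CDKN1A was 0.04, and on the swapped arrays that of CDKN1B was -0.34, so neither sign is settled. Neither interval reaches a 2-fold difference, but both probes read close to the background limit, which limits what this shows.

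RB1, the protein through which D cyclins act, was represented by 3 probes, and the 2 that could be tested differed in sign. The brightest was at 9.55, 9.77 and 8.94 in conventional cows and at 8.93, 8.99 and 9.02 in long FSH cows 1, 2 and 3. Its log2 ratio was -0.62, -0.78 and 0.08 in the pairs, with a mean of -0.44 ± 0.46 (SD, n = 3 cow pairs). The second was at 7.90, 8.18 and 7.49 in conventional cows and at 8.23, 8.47 and 8.68 in long FSH cows, with no overlap and a ratio above 0 on all 6 arrays. Its log2 ratio was 0.33, 0.29 and 1.19, with a mean of 0.60 ± 0.51 (SD), and neither probe passed (adjusted p = 0.582 and 0.545 from limma). The second exceeded the first by 0.95, 1.07 and 1.11 in pairs 1, 2 and 3, although on single arrays by 0.37 to 1.85. Their mean was 0.08, opposite in sign to the brightest probe. The third probe was not above background in any reading.

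MYC, a transcription factor that raises D cyclin and CDK4 expression and represses CDKN1A, moved in opposite directions between pairs. Its level was 8.49, 8.29 and 7.33 in conventional cows and 7.55, 8.37 and 9.42 in long FSH cows 1, 2 and 3. The log2 ratio was -0.94 in pair 1, 0.08 in pair 2 and 2.08 in pair 3, and on both arrays of pair 3 it was near this value, at 2.23 and 1.94. The mean of 0.41 ± 1.54 (SD, n = 3 cow pairs) had a 95% interval of -1.001 to 1.82, and became -0.43 without pair 3. The median ratio of the leukocyte markers was also highest in pair 3, at 0.23, 0.46 and 1.54 in pairs 1, 2 and 3, and LYZ itself was at 2.81 in pair 3. PTPRC, the brightest leukocyte marker, alone went the other way in pair 3, at -0.57. The summed leukocyte level was 5746 in conventional cow 3 and 5648 in long FSH cow 3. The part of the leukocyte markers in the MYC ratio was not tested.

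**Figure D3:**
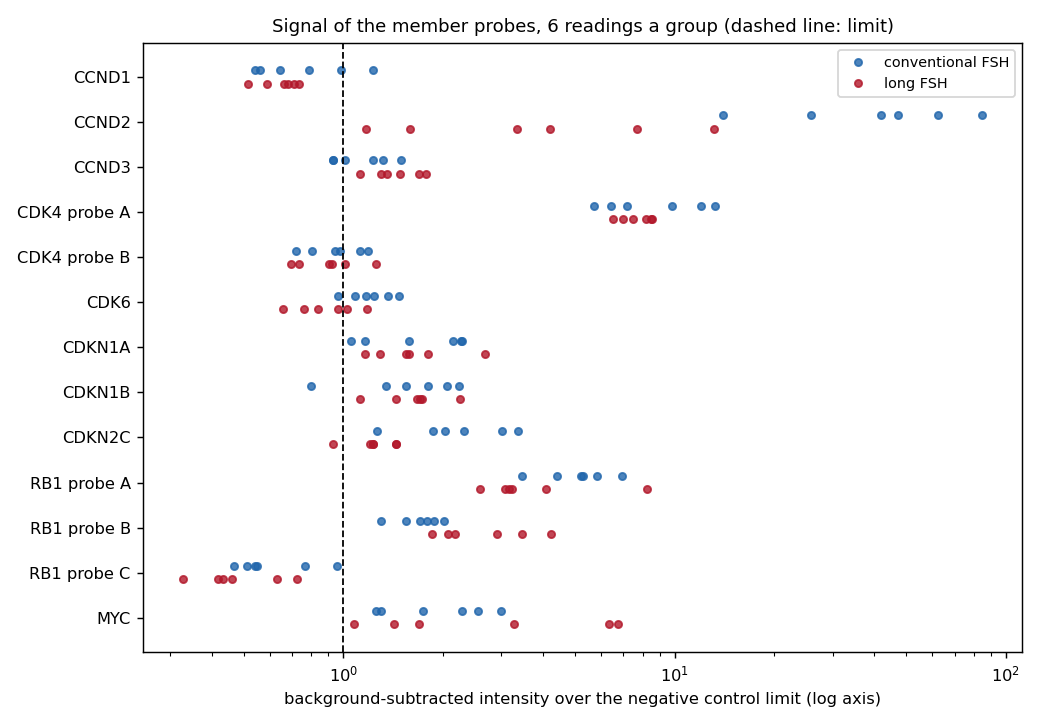
Background-subtracted intensity of the 13 member probes over the negative control limit of the same array and dye, on a log axis, with 6 readings for each group. CCND2 readings of the conventional group lie at 14.0 to 84.9 times the limit, above every long FSH reading at 1.17 to 13.1 times, whereas CCND1 and the third RB1 probe lie at or below the limit (dashed line) apart from 1 CCND1 reading.

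None of the 10 tested member probes was higher at the study's threshold, as were 2.48% of all tested probes. An unadjusted p of 0.05 or less was found for 2 of them, CCND2 and CDKN2C, against 9.45% of all. No probe of the array reached an adjusted p of 0.05 in limma on the pair means, for which the smallest was 0.127, while 2220 probes had an unadjusted p of 0.05 or less. The groups did not overlap for 4 of the 10 (CCND2, CDKN2C and CDK6 lower, the second RB1 probe higher), against 14.2% of all. CDK6 is counted here although it passed the filter through the conventional group alone. Long FSH cows all below the conventional cows were found for 6.33% of all tested probes, and all above for 7.86%. The ratio had 1 sign on all 6 arrays for 3 of the 10, against 9.49% of all. When the 6 arrays were fitted with the cow pair as a block, CCND2 was the only member with an adjusted p of 0.05 or less (0.00518 from limma), against 2.66% of all tested probes, or 2.51% with at least a 2-fold difference. That fit counts the swapped arrays of a pair separately although they hold the same RNA, so its p overstates the evidence of 3 cow pairs. In that fit CDKN2C had an adjusted p of 0.0896. The median log2 ratio of the 9 tested genes was -0.16, and that of all 9933 genes 0.03. The genes were chosen with results of these arrays known, so these shares are descriptions.

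The other genes of the G1 to S pathway were mostly near 0. Of 73 listed genes 51 were above background, and 3 of these were lower and none was higher at the study's threshold, against 5.42% of all genes in either direction, 2.02% lower and 3.39% higher. An unadjusted p of 0.05 or less from limma was found for 5 of the 51, against 11.7% of all genes. The median ratio was -0.07, and that of all genes 0.03. No gene of the 51 had an adjusted p of 0.05 or less on the pair means.

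Of 3 other CDK inhibitors above background, CDKN3, a phosphatase that acts on CDK2 and CDK1, was lower at -1.11 ± 0.57 (SD, n = 3 cow pairs). Its other probe was at -0.48 but dim, with 1 long FSH and 4 conventional readings above background, and so entered through the conventional group alone. The mean of both probes at -0.796 did not pass, nor did CDKN3 without pair 1 (-0.800) or with the cows unpaired. CDKN2B (p15), close kin of CDKN2C, had ratios of 2.30, -0.21 and 1.26 in pairs 1, 2 and 3, and its other probe was at 0.18 ± 0.10. CDKN2D (p19) was at -0.41 ± 0.35, and neither gene passed. CDKN1C and CDKN2A were not above background.

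Of 7 genes that control the turnover of p27 and D cyclins, CKS2 was lower at -1.08 ± 0.32 (SD, n = 3 cow pairs), with -0.75, -1.08 and -1.40 in pairs 1, 2 and 3 and no overlap between groups. It encodes a small partner of cyclin-dependent kinases and is best known for its part in mitosis. Its close relative CKS1B, which SKP2 needs to mark p27 for destruction, was at -0.50 ± 0.44 and SKP2 itself at -0.12 ± 1.57, and neither passed. CKS2 fell just short of a 2-fold difference on the arrays of one dye orientation (-0.995) and without pair 3 (-0.92).

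None of the 6 genes of cyclin E, CDK2 and the CDK-activating kinase passed, in either direction. CCNE2 was at -0.53 ± 0.44 and CDK2 at -0.38 ± 0.15. The ratios of CCNE2, CDK2, CCNE1 and CDK7 were below 0 in all 3 pairs, as were those of 1705 of all 9933 genes. The other tested probe of CDK7 was at -0.29 on average but at 0.03 in pair 3. That of CDK2 was below 0 in all 3 pairs but entered the test through the conventional group alone. CCNE2 was above background in 2 of 6 long FSH and 5 of 6 conventional readings, and so entered the test through the conventional group alone. The 12 pocket protein, E2F and DP genes did not pass either. RBL2, an RB1 relative that represses E2F targets in resting cells, had ratios of 0.10, 2.27 and 0.58 in the 3 pairs and a mean of 0.98 ± 1.14. It passed without pair 1 (1.42) and dropped to 0.34 without pair 2. LIN54, of the complex that RBL2 works in, was at -0.41 ± 0.03. It was above background in 1 of 6 long FSH and 4 of 6 conventional readings, and so also entered through the conventional group alone. E2F1 was at -0.14 ± 0.14.

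**Figure D4:**
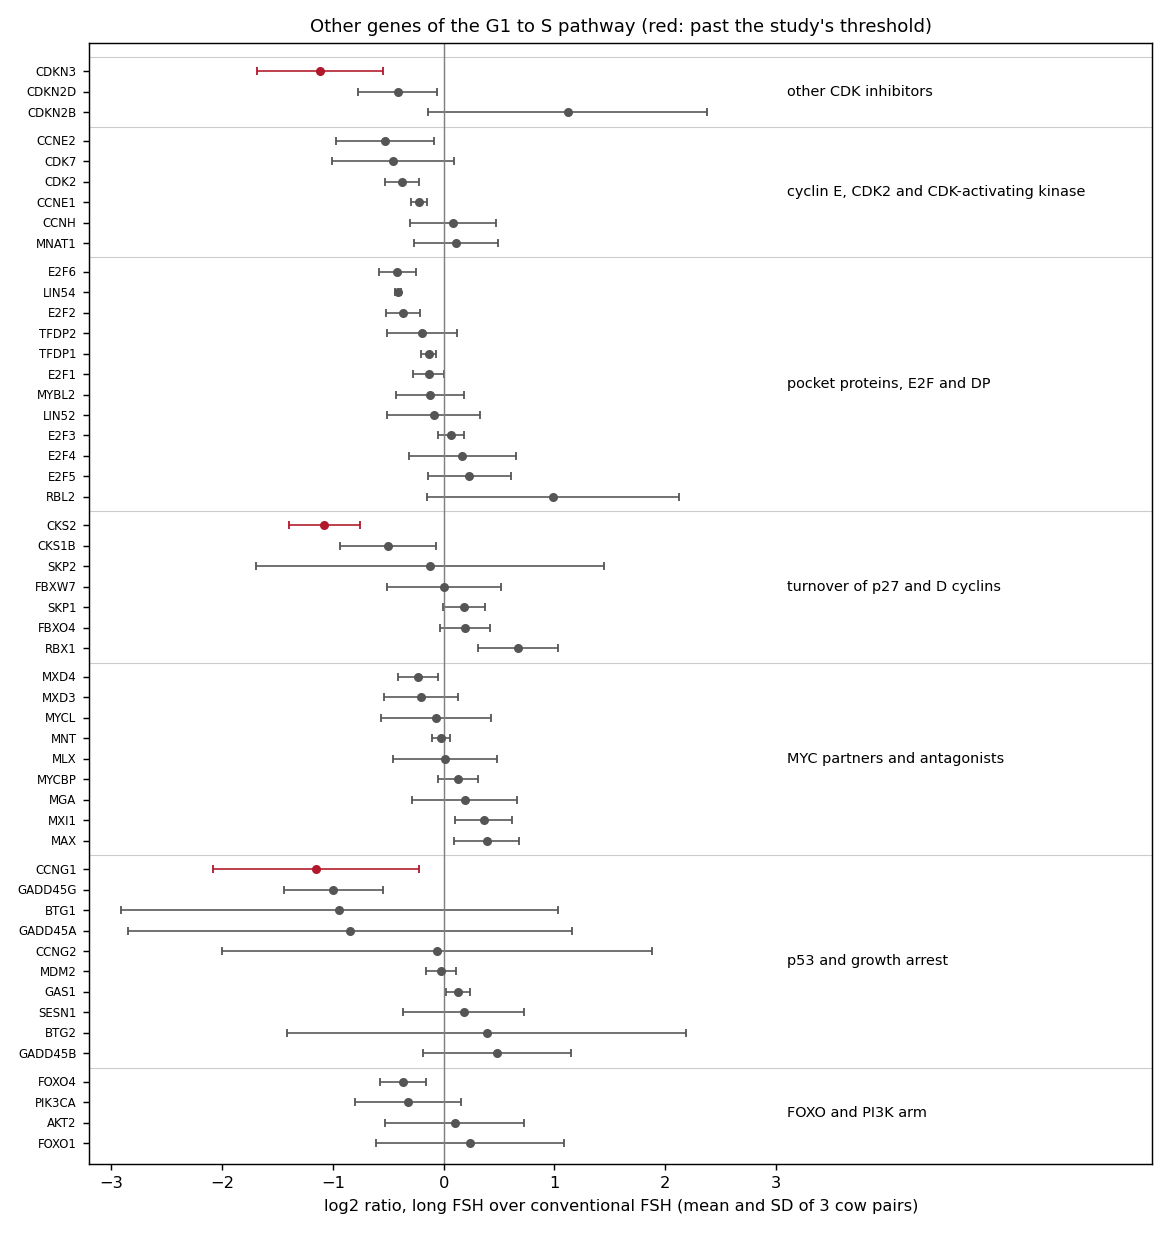
Log2 ratio of long FSH over conventional FSH (mean and SD of 3 cow pairs) for the brightest tested probe of 51 other genes of the pathway, ordered by ratio within 7 lists. Red marks the 3 genes past the study's threshold, CDKN3, CKS2 and CCNG1, which lie between -1.15 and -1.08.

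Of 9 MYC partners and antagonists none passed, with MAX, the obligate partner of MYC, at 0.39 ± 0.29 and the antagonist MXI1 at 0.36 ± 0.25. In the p53 and growth arrest list, CCNG1 (cyclin G1, a p53 target) was lower at -1.15 ± 0.93, and 9 of 10 genes did not pass. That call is weak, since CCNG1 passed in 17 of 25 alternative settings. Among others, it did not pass without pair 1 (-1.08), without pair 2 (-0.72), with the mean of its probes (-0.57) or on the arrays of one dye orientation (-0.53). The other probe of CCNG1 was at 0.00, but it was dim, with 3 long FSH and 2 conventional readings above background. Neither its ratio nor the mean of the probes therefore says much about the call. None of 4 genes of the FOXO and PI3K arm passed, with FOXO4 at -0.37 ± 0.21 and PIK3CA at -0.32 ± 0.48. FOXO4 was above background in 2 long FSH and 5 conventional readings, and PIK3CA in 2 and 6. Both entered the test through the conventional group alone, so the filter favoured ratios below 0 for them.

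Among the 9932 other genes tested, those whose level followed CCND2 most closely over the 6 cows were TROAP, UBE2C, NOC2L, FANCD2 and RNF113A, with Pearson's r of 0.998, 0.995, 0.995, 0.990 and 0.989. TROAP organizes the mitotic spindle, UBE2C drives mitotic protein destruction and FANCD2 repairs crosslinked DNA. The levels of TROAP were 11.49, 11.99 and 10.93 in conventional cows and 10.63, 9.42 and 9.36 in long FSH cows 1, 2 and 3, with no overlap and a ratio of -1.67 ± 0.86. The choice by likeness to CCND2 favours genes lower after long FSH, so their direction is not separate evidence. NOC2L and RNF113A followed the same order with much smaller ratios of -0.38 ± 0.19 and -0.24 ± 0.12. An r of 0.9 or more was reached by 169 genes, and the 6 cows share 3 pairs of arrays. Within the members, r to CCND2 was 0.78 for CDKN2C, 0.74 for the brightest RB1 probe, 0.58 for CDK4 and -0.52 for CCND3.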

How the data were processed

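Intensity values, as deposited, are scanner medians of the spot and of its local background in each dye. The authors' deposited log2 ratios had passed through background subtraction, 0.5 in place of negative values, loess and quantile normalization, and that table served as an alternative. Each of its columns followed the swapped array (r = 0.84 to 0.90) rather than the array it is named for (r = -0.69 to -0.39), and its column medians were -0.0035 to 0.0000015. Its direction was not stated and it was turned by the sample labels.

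Here net values of 0 or less were set to 0.5 after background subtraction, and loess was fitted within arrays. Mean intensities were quantile normalized between arrays, which left the ratios unchanged. With limma 3.58.1 in R 4.3.3, the 3 pair means (each of both arrays) were fitted for all tested probes, and p was adjusted after Benjamini-Hochberg over them. Adjusted p and intervals come from this fit. The background limit of each array and dye came from 153 negative control spots, and a tested probe exceeded it in 3 or more of the 6 readings of one group or the other. The number of arrays limits the precision. The labels number 3 cows a group.

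Symbols come from the platform annotation, with 1524 older ones renamed through RefSeq and genes represented by their brightest tested probe. Cow pairs come from the shared arrays. After the group means were removed, paired cows correlated at r = 0.153 to 0.260 and unpaired cows at r = -0.0131 or less. All members and probes are named. Of each pathway list the genes past the study's threshold are named, or the 2 with the smallest p where none passes, and 5 genes for likeness to CCND2. Genes named beyond this rule (CDKN2B, CDKN2D, CKS1B, SKP2, CCNE1, CDK7, E2F1, RBX1 and the growth arrest genes under the other observations) were chosen after their values were seen. Members and lists were chosen with earlier results of these data known. The fit was tested on simulated data. Alternatives were other background corrections, normalizations, filters, replicate units, dye orientations and limma options, the deposited table, and leaving out pairs or arrays.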

Additional observations from a re-analysis of the deposited data

How the results depend on the processing

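CCND2 passed the study's threshold in all 25 alternative settings, with log2 ratios of -4.29 to -2.47 and adjusted p of 0.00441 to 0.662 from limma. With the 6 arrays and the cow pair as replicate block, its adjusted p was 0.00518, and 590 probes passed the adjusted threshold with at least a 2-fold difference, although that fit counts swapped arrays of the same RNA separately. At the study's unadjusted threshold that block gave 1136 probes against 924, and it changed no call of a member. All probes past the study's threshold numbered 1420 (566 lower) on arrays 1 to 3, 1711 (723 lower and 988 higher) on arrays 4 to 6, 548 (313 higher) in the deposited table and 419 (136 higher) with limma's trend and robust options. Leaving out a pair or an array gave 844 to 1810 probes, 301 to 742 lower and 504 to 1068 higher, with 1810, 742 and 1068 without pair 3. It gave 1 to 2 member probes, the second being CDKN2C without pair 2, and 2 to 5 pathway genes. Pathway genes numbered 5 with median centring, 5 on arrays 4 to 6 and 1 (CKS2) with the mean of all tested probes, against 3. Signs turned for members near 0. CDKN1A was at 0.045 on arrays 1 to 3 and 0.077 in the deposited table, CDKN1B at -0.34 on arrays 4 to 6 and -0.058 in the deposited table, CDK4 at 0.082 on arrays 4 to 6, and RB1 at 0.082 as the mean of its probes. Without a pair or an array, CDKN1A ran from -0.44 to 0.21, CDKN1B from -0.14 to 0.33, CDK4 from -0.29 to 0.046 and MYC from -0.43 to 1.08. The causes were not tested. CCND1, CDK6 and CCND3 lay at or near the background limit, which limits what their values show. The same holds for the CDK inhibitors among the members. CDKN1A readings were at 1.06 to 2.68 times the limit, those of CDKN1B at 0.80 to 2.26 times and those of CDKN2C at 0.93 to 3.35 times.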

Other observations

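Several growth arrest genes of the p53 list differed more between cow pairs than between groups, as MYC did. BTG2, an early response gene that slows proliferation, was at 0.66, -1.53 and 2.04 in pairs 1, 2 and 3 and BTG1 at -0.40, -3.13 and 0.70. GADD45A, a stress gene that binds cyclin-dependent kinase complexes, was at 0.30, -3.16 and 0.32, with 3 of 6 conventional readings above background, and its other probe at -0.22. CCNG2, a cyclin that rises in cells leaving the cycle, was at 1.00, 1.13 and -2.30. None of these 4 genes passed the study's threshold, and each had both signs among the 3 pairs. GADD45G, by comparison, was below 0 in all 3 pairs, at -1.34, -0.49 and -1.16, with a mean of -0.997 ± 0.448 (SD, n = 3 cow pairs) just short of a 2-fold difference and an adjusted p of 0.335 from limma. RBX1, a subunit of the ubiquitin ligase that removes p27, was above 0 in all 3 pairs, at 0.37, 1.07 and 0.58, with no overlap between groups and an adjusted p of 0.468 from limma, also under 2-fold. Its other probes were at 0.69 and 0.15.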
